A study of Mus musculus with 18 samples.

Results

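The genes described here are those that set mouse mammary tumours labelled Wnt1_iFGFR1, Wnt1_iFGFR2 or Wnt1_iR2 apart from tumours labelled Wnt1 alone, in all 3 of these groups. Primary mammary tumours were measured on 18 arrays. The labels give 6 arrays of Wnt1 tumours, 4 of Wnt1_iFGFR1, 4 of Wnt1_iFGFR2 and 4 of Wnt1_iR2, called Wnt1, iFGFR1, iFGFR2 and iR2 below, and the last 3 together are called the receptor groups, although the label of iR2 names no receptor outright. The mean of the 3 receptor group means was set against the mean of the 6 Wnt1 arrays. A gene counts as separated where all 12 receptor arrays lay on 1 side of all 6 Wnt1 arrays. Of 16887 genes, 142 (0.841%) were separated, 84 (0.497%) higher and 58 (0.343%) lower in the receptor groups.

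All 4 groups share the Wnt1 label, and every title carries FVB, the name of an inbred mouse strain, and MMTV, the name of a mouse mammary tumour virus whose promoter is active in mammary epithelium. The labels do not expand iFGFR1, iFGFR2 or iR2, and they give no age and no drug treatment. Each array compared tumour RNA (Cy5) with a pool of whole-mouse RNA (Cy3). The values are log ratios whose base is not stated in the table. The base was read as 2 and the direction was taken from the dyes as tumour over reference. The median of every array lay close to 0 (-0.02 to 0.01). A value above 0 therefore means a higher ratio than about the median feature of that array, and not more RNA than in the pool. Below, above or below the pool is short for a value above or below 0 in this sense. The table holds no spot intensities, so whether a gene was above background in a tumour is unknown. Whether each array stands for its own animal is not in the labels, so a p-value here reflects only sample-to-sample spread, and part of that may be technical.

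Wnt1 is a secreted ligand that stabilises beta-catenin and so switches on genes through TCF/LEF factors. FGF receptors are tyrosine kinases that, once paired, signal through the RAS and ERK kinases to ETS and AP-1 transcription factors, and in the mammary gland they are needed for ductal outgrowth. The title of the series places the question in the cooperation of these pathways in tumour formation.

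Fgfr1 and Fgfr2 themselves were not separated. Fgfr1 lay between -0.06 and 0.36 on the Wnt1 arrays (median 0.24) and at 2.14, 1.5, 1.32 and 1.42 on the iFGFR1 arrays. It lay between -0.09 and 0.65 on the iFGFR2 arrays and between 0.48 and 0.64 on the iR2 arrays. Fgfr2 differed from Wnt1 by -0.69 in iFGFR1, -0.53 in iFGFR2 and -0.32 in iR2, and the pooled difference of -0.52 was not called (limma adjusted p = 0.0773). Without iFGFR2 replicate 2 it was -0.61 and called (limma adjusted p = 0.0161). The files do not say whether the feature for either receptor lies in the part of the gene that the i constructs carry, so these levels check the labels only for iFGFR1. Wnt1 differed by -0.08 ± 0.20 (standard error, SE), and Fkbp1a, which encodes the drug-binding protein FKBP12, by -0.05 ± 0.18.

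The arrays were not equally alike. The mean correlation of an array with the others of its group, over all genes, was 0.945 to 0.956 for iR2, 0.763 to 0.813 for iFGFR1 and 0.761 to 0.83 for iFGFR2. Among Wnt1 arrays it was 0.778 for replicate 3 and 0.847 to 0.88 for the other 5. Wnt1 replicate 3 also held a mean of 3.33 over 13 milk genes, against -0.02 to 0.77 on the other 17 arrays. On 25 fibroblast and matrix genes it had a mean of -0.97, the highest of all 18 arrays, against -2.07 to -1.78 on the other Wnt1 arrays. Several counts are therefore given with and without it. Over all 16887 genes, leaving it out raised the number called from 2115 to 2831 (1546 higher and 1285 lower). The number separated rose from 142 to 513. Counts of list genes without it are to be read beside this general rise.

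Genes of exocrine secretion led the separated genes. The 4 widest gaps between the nearest receptor array and the nearest Wnt1 array were those of Car6, a secreted carbonic anhydrase of saliva and milk, Scgb2b27, a small secreted secretoglobin, Aqp5, the apical water channel of gland cells, and Spdef, an ETS transcription factor of secretory cells. The promoters of Car6, Scgb2b27, Spdef, Acox2 and Prom1 are shown as examples picked from the 12 largest higher genes. Acox2 and Prom1 are described below, and Spdef itself is an ETS factor. The choice follows no ranking: Cldn10 (3.04) and Aqp5 (2.85) had larger differences than Spdef (2.44) and are left out. Each run is the 250 bases before the RefSeq gene start on assembly GRCm38.p6, read 5′ to 3′ on the gene's own strand, which is the minus strand for all 5. Car6 is at chr4:150201136-150201385, Scgb2b27 at chr7:34013943-34014192, Acox2 at chr14:8259020-8259269, Spdef at chr17:27728952-27729201 and Prom1 at chr5:44101737-44101986. Capitals mark the motifs AGGAAG (ETS), CTTTGA (TCF/LEF) and TGACTCA (AP-1), searched on both strands.
Car6: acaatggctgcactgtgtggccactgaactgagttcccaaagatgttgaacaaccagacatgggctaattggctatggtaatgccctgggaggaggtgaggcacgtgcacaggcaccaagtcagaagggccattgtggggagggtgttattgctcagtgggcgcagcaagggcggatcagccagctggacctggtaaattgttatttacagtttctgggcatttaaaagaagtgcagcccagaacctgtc
Scgb2b27: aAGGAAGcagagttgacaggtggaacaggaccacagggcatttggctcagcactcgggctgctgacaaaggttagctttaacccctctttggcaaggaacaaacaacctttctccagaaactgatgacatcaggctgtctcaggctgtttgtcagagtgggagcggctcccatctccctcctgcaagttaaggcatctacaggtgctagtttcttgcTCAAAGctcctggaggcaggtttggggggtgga
Acox2: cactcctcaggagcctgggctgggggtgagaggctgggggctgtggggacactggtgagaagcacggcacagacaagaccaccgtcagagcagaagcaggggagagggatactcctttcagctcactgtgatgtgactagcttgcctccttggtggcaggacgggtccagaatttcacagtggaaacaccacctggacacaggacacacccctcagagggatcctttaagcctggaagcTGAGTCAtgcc
Spdef: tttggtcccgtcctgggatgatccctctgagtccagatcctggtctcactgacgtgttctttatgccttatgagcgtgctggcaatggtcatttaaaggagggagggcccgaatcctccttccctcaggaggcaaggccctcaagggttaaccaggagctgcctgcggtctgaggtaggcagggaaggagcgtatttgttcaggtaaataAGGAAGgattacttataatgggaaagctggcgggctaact
Prom1: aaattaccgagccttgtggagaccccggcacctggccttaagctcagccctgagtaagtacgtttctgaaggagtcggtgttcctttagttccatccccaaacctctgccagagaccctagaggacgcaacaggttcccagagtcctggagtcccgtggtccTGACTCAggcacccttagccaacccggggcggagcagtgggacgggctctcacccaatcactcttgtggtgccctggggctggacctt

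The Scgb2b27 promoter held 1 ETS and 1 TCF/LEF match, that of Spdef 1 ETS match, those of Acox2 and Prom1 1 AP-1 match each, and that of Car6 none. With chromosome 18 left out, promoters were found for 77 of the 84 higher genes and 46 of the 58 lower genes. The ETS letters stood in 18 of the 77 (23.4%) and 14 of the 46 (30.4%), against 28.1% of the 13368 promoters found over all genes. The TCF/LEF letters stood in 16.9% and 10.9%, against 12.5% of all. The AP-1 letters stood in 5 higher (6.49%) and 3 lower genes (6.52%), against 3.82% of all. A match is a run of letters and not a measured binding site, and a missing match says only that these letters are not in this window.

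**Figure D1:**
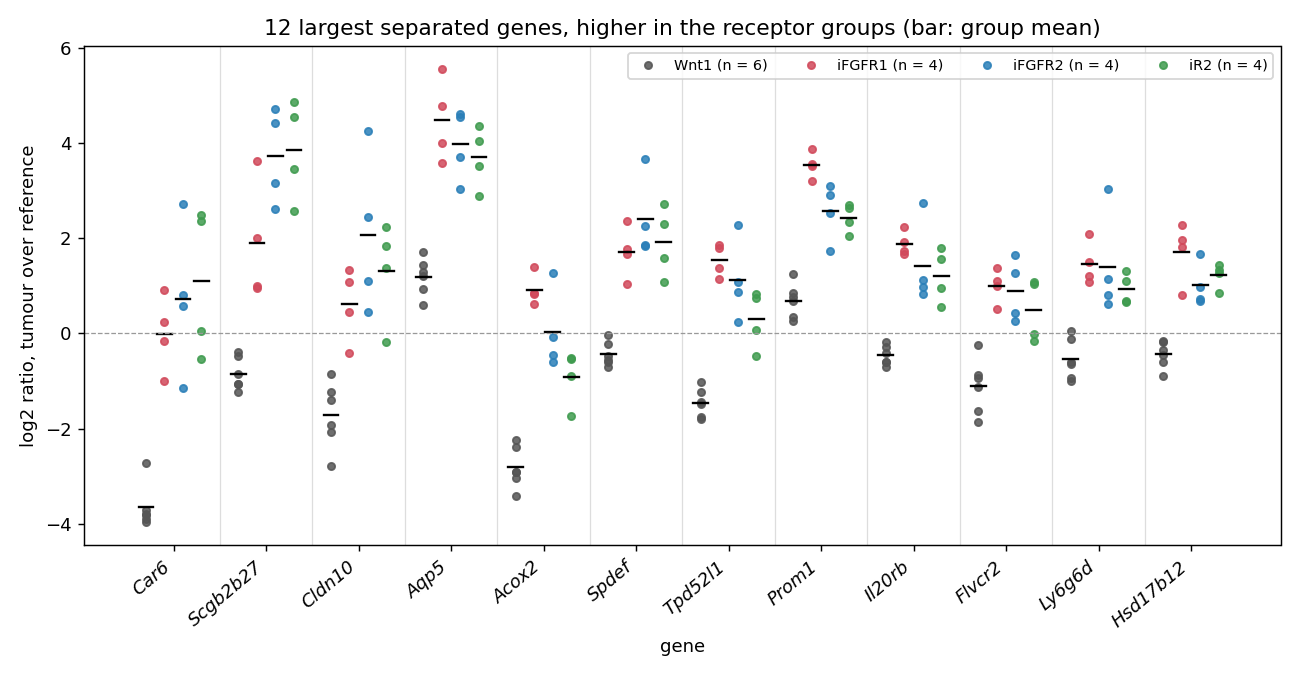
Log2 ratio of tumour over reference RNA (vertical axis) on every array for the 12 named genes with the largest positive differences among the separated genes. Points are arrays, coloured by group, and bars are group means; for each gene the Wnt1 points lie below all 12 receptor points, by 1.56 for Car6 and by 0.077 for Flvcr2.

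Car6 lay at -3.97 (lowest), -3.80 (median) and -2.72 (highest) over the 6 Wnt1 arrays. It lay at -0.16, 0.91, -1.0 and 0.24 in iFGFR1, at 2.71, 0.80, 0.57 and -1.15 in iFGFR2 and at 0.06, 2.48, 2.36 and -0.53 in iR2. The pooled difference was 4.25 ± 0.48 (SE), or 19.1-fold. The 5 lower Wnt1 arrays lay within 0.27 of each other, and replicate 3 stood above them, yet no Wnt1 array came within 1.56 of a receptor array. The receptor arrays spread widely within each group, and every group held at least 1 array below 0 and 1 above it.

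Scgb2b27 lay between -1.24 and -0.40 on the Wnt1 arrays (median -0.96). It lay at 0.95, 3.63, 1.0 and 2.0 in iFGFR1, at 4.41, 4.71, 3.15 and 2.62 in iFGFR2 and at 3.45, 4.85, 4.55 and 2.58 in iR2, and the pooled difference was 4.00 ± 0.39. Every Wnt1 array was below the whole-mouse pool and every receptor array above it. Secretoglobin genes have close relatives, and a feature may read more than 1 of them. Aqp5 was already above the pool on the Wnt1 arrays, at 0.59 to 1.71 (median 1.25). It was at 3.58, 5.56, 3.99 and 4.77 in iFGFR1, at 4.6, 4.54, 3.70 and 3.04 in iFGFR2 and at 3.52, 4.35, 4.04 and 2.88 in iR2, a pooled difference of 2.85 ± 0.29. The lowest receptor array of Aqp5 stood 1.17 above the highest Wnt1 array.

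Spdef lay between -0.71 and -0.04 on the Wnt1 arrays (median -0.51). It lay at 1.66, 1.78, 1.04 and 2.35 in iFGFR1, at 3.66, 1.85, 2.25 and 1.83 in iFGFR2 and at 1.58, 2.72, 2.29 and 1.09 in iR2, and the pooled difference was 2.44 ± 0.27. Like Scgb2b27, it was below the pool in all Wnt1 tumours and above it in all receptor tumours. Cldn10, a claudin that sets ion selectivity between cells, lay between -2.79 and -0.86 on the Wnt1 arrays (median -1.66). It lay at 1.34, -0.41, 0.46 and 1.07 in iFGFR1, at 4.26, 0.44, 2.45 and 1.11 in iFGFR2 and at 1.38, 2.23, 1.84 and -0.19 in iR2, a pooled difference of 3.04 ± 0.46. Slc12a2, the sodium, potassium and chloride cotransporter that loads secretory cells with chloride, lay between -0.23 and 0.49 on the Wnt1 arrays and between 0.55 and 2.91 on the receptor arrays. Its nearest arrays were only 0.06 apart.

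These 6 genes are part of a list of 25 exocrine secretory genes, of which 8 were called higher and 1 lower at an adjusted p under 0.05 (limma). Over all genes, 12.5% were called in this comparison, 6.9% higher and 5.62% lower. The list's median difference was 0.09, against -0.02 over all genes, so most of the list did not move with the 6. Lcn2 (1.33) and Xbp1 (0.97) were called higher without being separated, and Muc4 (-1.25), a membrane mucin, was called lower. The salivary and airway genes Pip (0.09), Smgc (0.01), Scgb1a1 (-0.04), Bpifa1 (-0.10) and Agr2 (-0.24) were not called. Without Wnt1 replicate 3, 9 were called higher and 1 lower, and Lcn2 (1.67) became separated too. Of 13 milk genes, Csn3 was called higher (1.70), Glycam1, Btn1a1 and Cel were called lower, and 0 were separated. The milk genes were the ones in which Wnt1 replicate 3 stood out, and without it Csn3 (2.11), Plin2 (0.92) and Lalba (0.84) were called higher and Glycam1 (-1.19) and Cel (-0.77) lower. Csn3 and Plin2 were then separated as higher.

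Prom1, the membrane glycoprotein CD133 found on luminal cells, had the largest difference of the luminal list. It lay between 0.26 and 1.25 on the Wnt1 arrays (median 0.72). It lay at 3.56, 3.21, 3.87 and 3.52 in iFGFR1, at 3.09, 1.73, 2.53 and 2.91 in iFGFR2 and at 2.33, 2.70, 2.63 and 2.04 in iR2, a pooled difference of 2.15 ± 0.19. Each iFGFR1 array was above every array of the other receptor groups. Of 21 luminal genes, 6 were called higher (Prom1, Krt8, Krt18, Epcam, Kit and Cd14) and 0 lower, and Prom1 alone was separated. The list's median difference was only 0.05, and members not called ran from Aldh1a3 at -0.64 to Elf5 at 1.16. The list mean overlapped, at 0.98 to 1.89 on the Wnt1 arrays and 1.25 to 1.86 on the receptor arrays. Leaving out Wnt1 replicate 3 gave 8 called higher and 3 separated, while over all genes 1546 were then called higher and 513 separated.

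Ocln, the tight junction protein occludin, lay between 0.06 and 0.66 on the Wnt1 arrays and between 0.74 and 1.83 on the receptor arrays, with a pooled difference of 1.18 ± 0.16. Of 20 claudin and tight junction genes, 6 were called higher and 0 lower, with a median of 0.34, and Cldn10 and Ocln were separated. The other 4 called were Cldn1 (1.48), Marveld2 (0.62), Cldn8 (0.57) and Cldn7 (0.54). Members not called ran from Cldn11 at -0.84 to Cldn4 at 0.59. With Wnt1 replicate 3 left out, 8 were called higher and 1 lower, and 3 were separated.

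Acox2, a peroxisomal oxidase of branched fatty acids and bile acid precursors, lay between -3.41 and -2.23 on the Wnt1 arrays (median -2.92). It lay at 1.40, 0.84, 0.82 and 0.62 in iFGFR1, at 1.27, -0.46, -0.07 and -0.60 in iFGFR2 and at -0.90, -0.53, -0.51 and -1.74 in iR2, a pooled difference of 2.83 ± 0.26. The rest of 18 peroxisome genes did not share this size: 4 were called higher and 2 lower, the others called being Abcd3 (0.86), Cat (0.75), Hacl1 (0.71), Phyh (-0.68) and Pex11a (-0.52). Acox2 was the 1 separated gene of that list, whose median difference was 0.07. Hsd17b12, the ketoacyl reductase of fatty acid elongation, lay between -0.89 and -0.16 on the Wnt1 arrays and between 0.69 and 2.27 on the receptor arrays, a pooled difference of 1.75 ± 0.20. Prodh, which breaks down proline, differed by 1.07 ± 0.16 with a gap of 0.044.

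The remaining 4 of the 12 largest higher genes have varied roles. Tpd52l1, of the D52 family of vesicle trafficking proteins, lay between -1.79 and -1.03 on the Wnt1 arrays (median -1.46). It lay at 1.79, 1.14, 1.38 and 1.86 in iFGFR1, at 2.27, 0.24, 1.08 and 0.86 in iFGFR2 and at 0.08, 0.74, 0.82 and -0.47 in iR2. Its pooled difference was 2.43 ± 0.25. Il20rb, a receptor chain for cytokines of the interleukin 20 family, lay between -0.70 and -0.18 on the Wnt1 arrays and between 0.55 and 2.73 on the receptor arrays, a pooled difference of 1.96 ± 0.24. Ly6g6d, a surface protein held by a lipid anchor, lay between -0.99 and 0.06 on the Wnt1 arrays and between 0.61 and 3.04 on the receptor arrays, a pooled difference of 1.80 ± 0.28. Flvcr2, a membrane transporter, differed by 1.90 ± 0.26, but its nearest arrays were only 0.077 apart. An unnamed clone, 2310057J18Rik, was larger than most of these at 3.58 and lay between 0.31 and 6.04 on the receptor arrays.

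Ier3, an immediate early gene, was the only separated gene of 22 listed for FGF and ERK feedback, beside 0.841% of all genes. It lay between 0.70 and 1.68 on the Wnt1 arrays (median 1.36). It lay at 2.49, 3.43, 3.04 and 3.16 in iFGFR1, at 2.71, 1.86, 2.08 and 1.77 in iFGFR2 and at 2.38, 1.90, 1.94 and 1.74 in iR2. The median of the 22 genes was 0.28, and 5 were called higher and 1 lower, beside 6.9% and 5.62% of all genes. The other higher ones were Phlda1 (1.37), Etv1 (1.24), Dusp6 (0.76) and Dusp4 (0.71), and Egr1 was lower (-1.12). The Sprouty genes were not called, at 0.38 for Spry1, 0.04 for Spry2 and 0.19 for Spry4. The mean over the 22 genes, Ier3 included, was 0.51 to 0.70 on the Wnt1 arrays and 0.71 to 1.21 on the receptor arrays. These ranges did not overlap, but Wnt1 replicate 6 (0.70) and iR2 replicate 4 (0.71) nearly met.

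Of 39 proliferation genes, 7 were called higher and 0 lower, beside 6.9% and 5.62% of all genes. Kif11, a mitotic spindle motor, and Ndc80, of the outer kinetochore, were separated. Kif11 lay between -0.49 and 0.42 on the Wnt1 arrays and between 0.56 and 1.26 on the receptor arrays, a pooled difference of 0.95 ± 0.15. Ndc80 lay between -1.41 and -0.03 on the Wnt1 arrays and between 0.04 and 1.26 on the receptor arrays, a pooled difference of 1.01 ± 0.19. The proliferation list mean overlapped between the groups, at -0.04 to 0.38 in Wnt1 and 0.03 to 0.85 in the receptor groups. Of 20 interferon genes, 9 were called higher, from Irf7 (0.76) to Rtp4 (1.93), and 0 were separated (1 without Wnt1 replicate 3). Over all genes, 6.62% of called genes were separated, so 0 of 9 says nothing particular about this list. Its median difference was 1.21 in iFGFR1 and 0.44 in both iFGFR2 and iR2.

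Among higher genes with a pooled difference of 1 or more, the 5 with the most even differences over the receptor groups were Psap, the precursor of the saposins of lysosomal lipid breakdown, Prodh, Cnot8, a deadenylase of the CCR4-NOT complex, Tcaf1, which binds TRP channels, and Hdac2, a histone deacetylase. Psap differed from Wnt1 by 1.20 in iFGFR1, 1.09 in iFGFR2 and 1.12 in iR2. Its Wnt1 arrays lay between 0.07 and 1.15 and its receptor arrays between 1.44 and 2.44. Cnot8 differed by 1.25, 1.09 and 1.20 in the same order. Tcaf1 differed by 1.38, 1.54 and 1.64, and Hdac2 by 1.36, 1.17 and 1.45. All Wnt1 arrays were below the pool and all receptor arrays above it for both Tcaf1 and Hdac2.

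Such a change of sign against the whole-mouse pool was seen in 12 higher genes. The others were Scgb2b27, Spdef, Il20rb, Hsd17b12, Ndc80, Brd7, Ing3, Fam210a, Polr2m and the clone 2310057J18Rik. Brd7, a bromodomain protein of SWI/SNF complexes, differed by 1.17, and Ing3, of a histone acetylase complex, by 1.39. Over all 84 higher genes, the median level was -0.45 in Wnt1 and 0.66 in the receptor groups, and 57 had a Wnt1 mean below 0. Further higher genes, named here after their values were seen, include the SWI/SNF subunit Smarce1 (1.12), the calpain subunit Capns1 (1.09), the proteasome ATPase Psmc3 (1.15), the peroxisomal import receptor Pex7 (1.23), the coactivator Ppargc1a (1.16), the focal adhesion protein Fermt1 (1.16) and the glycogen phosphorylase Pygl (1.27).

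The 58 lower genes were smaller in size, with a median difference of 0.82 against 1.08 for the higher genes, and 19 of 58 against 51 of 84 reached a size of 1. Their gaps were narrower as well. The widest gap was 0.294, against 1.56 among the higher genes, and 0 of 58 against 12 of 84 had a gap of 0.5 or more. A fall of 2 or more was seen in 5 called genes, of which 1 was separated, and a rise of 2 or more in 16, of which 9 were separated.

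**Figure D2:**
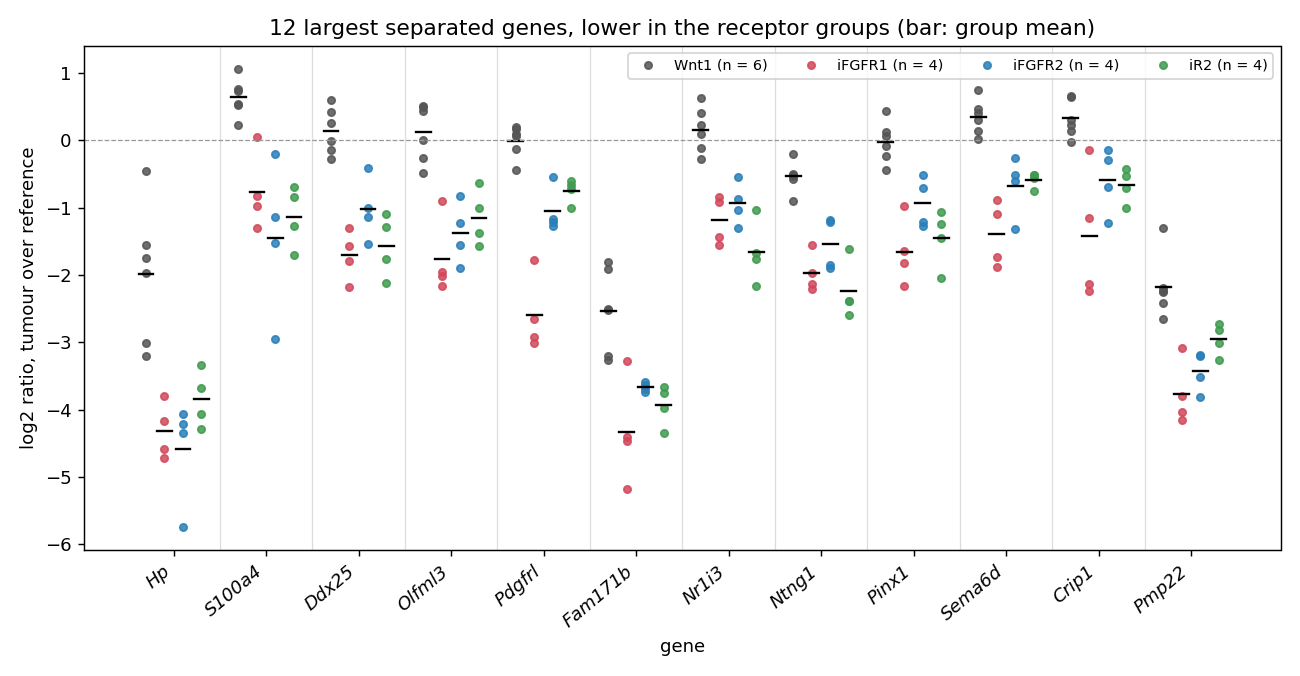
Log2 ratio of tumour over reference RNA (vertical axis) on every array for the 12 named genes with the largest negative differences among the separated genes. Points are arrays, coloured by group, and bars are group means; the receptor points lie below all Wnt1 points for each gene, but by no more than 0.294 (Ntng1).

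Hp, the plasma protein haptoglobin that binds free haemoglobin, was the lowest of the separated genes. It lay at -3.21 (lowest), -1.86 (median) and -0.45 (highest) over the Wnt1 arrays. It lay at -4.72, -4.58, -3.79 and -4.17 in iFGFR1, at -5.74, -4.06, -4.21 and -4.34 in iFGFR2 and at -4.06, -3.68, -4.29 and -3.34 in iR2, a pooled difference of -2.26 ± 0.33. The Wnt1 arrays themselves spread over more than the pooled difference, and the nearest arrays were 0.128 apart. Of 17 acute phase genes, Hp alone was called lower and Lcn2 alone higher. Wnt1 replicate 3 had the highest mean of that list, 0.62 against -0.81 to -0.49 on the other Wnt1 arrays. Without it Hp differed by -1.95 and stayed separated, and Lrg1 (0.91) was called higher as well.

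S100a4, a calcium-binding protein of fibroblasts and other motile cells, lay between 0.22 and 1.06 on the Wnt1 arrays (median 0.64). It lay at -0.83, -1.31, -0.98 and 0.05 in iFGFR1, at -2.95, -0.21, -1.52 and -1.14 in iFGFR2 and at -0.85, -1.28, -1.71 and -0.69 in iR2, a pooled difference of -1.76 ± 0.29. S100a3 lay between -0.70 and -0.17 on the Wnt1 arrays and between -2.50 and -0.83 on the receptor arrays. S100a16 went the other way, at -0.49 to 0.06 in Wnt1 and 0.09 to 1.27 in the receptor groups. In the gene order of assembly GRCm38.p6, S100a3 neighbours both S100a16 and S100a4 among the tested genes, so higher and lower members stand side by side. Of 13 S100 genes, 4 were called lower, S100a6 (-1.31) and S100a10 (-0.89) being the others, and S100a16 alone was called higher. Chn2 and Prr15 were the only other neighbouring pair, both higher.

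Fibroblast and matrix genes, a list that holds S100a4, were also examined. Of 25 such genes, 13 were called lower and 0 higher, with a median of -0.53, while S100a4 alone was separated. The called ones include Fbln1 (-1.28), Mgp (-1.49), Lum (-1.35), Dcn (-1.02), Pdgfrb (-0.94) and Pdgfra (-0.93). These falls were uneven: 11 of the 13 were largest in iFGFR1. Mgp differed by -3.42 in iFGFR1, -1.10 in iFGFR2 and 0.05 in iR2, and Pdgfra by -2.61, -0.43 and 0.23 in that order, whereas S100a4 differed by -1.41, -2.09 and -1.78. Without Wnt1 replicate 3, 10 of the 25 were called lower. The mean over the list was -2.07 to -0.97 on the Wnt1 arrays and -2.91 to -1.93 on the receptor arrays, and without Wnt1 replicate 3 the Wnt1 range was -2.07 to -1.78. In whole tumours, fewer fibroblasts and less RNA per fibroblast cannot be told apart. The part of fibroblast content in the lower genes was not tested.

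Olfml3, a secreted olfactomedin protein, lay between -0.49 and 0.51 on the Wnt1 arrays (median 0.22). It lay at -2.02, -1.96, -2.16 and -0.90 in iFGFR1, at -1.90, -0.83, -1.23 and -1.56 in iFGFR2 and at -1.01, -1.37, -1.57 and -0.64 in iR2, a pooled difference of -1.54 ± 0.22. Pdgfrl, which resembles the outer part of a PDGF receptor, lay between -0.44 and 0.20 on the Wnt1 arrays. It lay at -2.65, -2.92, -3.01 and -1.78 in iFGFR1, at -0.55, -1.21, -1.17 and -1.27 in iFGFR2 and at -0.73, -1.0, -0.67 and -0.60 in iR2. All iFGFR1 arrays were lower than all other arrays of that gene. Pmp22, a myelin and epithelial membrane protein, lay between -2.66 and -1.31 on the Wnt1 arrays and between -4.15 and -2.73 on the receptor arrays, with nearest arrays 0.076 apart. Its difference was -1.20, and -1.03 without Wnt1 replicate 3.

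Guidance proteins were measured on several features. Ntng1, a membrane-anchored netrin, had 11 features, of which 7 alone put all 12 receptor arrays below all Wnt1 arrays. The 11 features differed by -1.71 to -0.40, and their average lay between -0.90 and -0.20 in Wnt1 and between -2.59 and -1.19 in the receptor groups. Sema6d, a transmembrane semaphorin, had 2 features with differences of -1.67 and -0.80. Its average was above 0 on all Wnt1 arrays (0.02 to 0.74) and below 0 on all receptor arrays (-1.88 to -0.27). Lamp1, a lysosomal membrane protein, and Tanc1, a scaffold protein, were the other 2 genes that went from above the pool to below it. Crip1, a LIM domain protein, lay between -0.02 and 0.66 in Wnt1 and between -2.24 and -0.14 in the receptor groups.

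Small differences with gaps among the 6 widest of the lower genes were seen in Cox5a, of complex IV (0.207), and Uqcr10, of complex III (0.192). None of the lists covered the respiratory chain, so this pair does not speak for it. Cox5a lay between -1.74 and -1.01 on the Wnt1 arrays and between -3.31 and -1.94 on the receptor arrays, a pooled difference of -0.86 ± 0.16. Uqcr10 lay between -1.13 and -0.54 on the Wnt1 arrays and between -1.92 and -1.32 on the receptor arrays, a pooled difference of -0.73 ± 0.12. Lamp1 lay between 0.12 and 0.39 on the Wnt1 arrays and between -0.59 and -0.12 on the receptor arrays. It differed by only -0.50 ± 0.11, and yet its gap of 0.231 was among the 6 widest of the lower genes.

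Nr1i3, the nuclear receptor CAR, lay between -0.28 and 0.62 on the Wnt1 arrays and between -2.16 and -0.54 on the receptor arrays, a pooled difference of -1.42 ± 0.18. Ddx25, an RNA helicase of germ cells, differed by -1.57 ± 0.20. Pinx1, which binds telomerase, differed by -1.33 ± 0.19, and Fam171b by -1.44 ± 0.24 with nearest arrays 0.013 apart. Among lower genes of size 1 or more, the 5 with the most even differences were P2rx2, an ATP-gated channel, Prtn3, a neutrophil protease, S100a4, Olfml3 and Hp. P2rx2 differed from Wnt1 by -0.98 in iFGFR1, -1.05 in iFGFR2 and -1.04 in iR2. Prtn3 differed by -1.28, -1.01 and -0.86 in that order.

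The Wnt pathway list held 0 separated genes, beside 0.841% of all genes, so 0 in a list of this length says little. Of 23 Wnt targets and antagonists, 7 were called lower and 2 higher, with a median of -0.53. Sostdc1 (-1.90), Lgr5 (-1.48), Wif1 (-1.26), Ccn5 (-1.22) and Apcdd1 (-0.97) were among the lower ones, and Nkd1 (1.04) and Rnf43 (0.53) were higher. All 7 lower genes had their largest difference in iFGFR1. Wif1 differed by -3.14 in iFGFR1, -0.45 in iFGFR2 and -0.20 in iR2, Lgr5 by -2.90, -1.45 and -0.10, and Sostdc1 by -3.51, -1.20 and -0.98. Without Wnt1 replicate 3, 9 were called lower, and 1 gene in each direction was separated. Each list was drawn up with earlier results of these data known, so its counts are a description and no independent support.

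**Figure D3:**
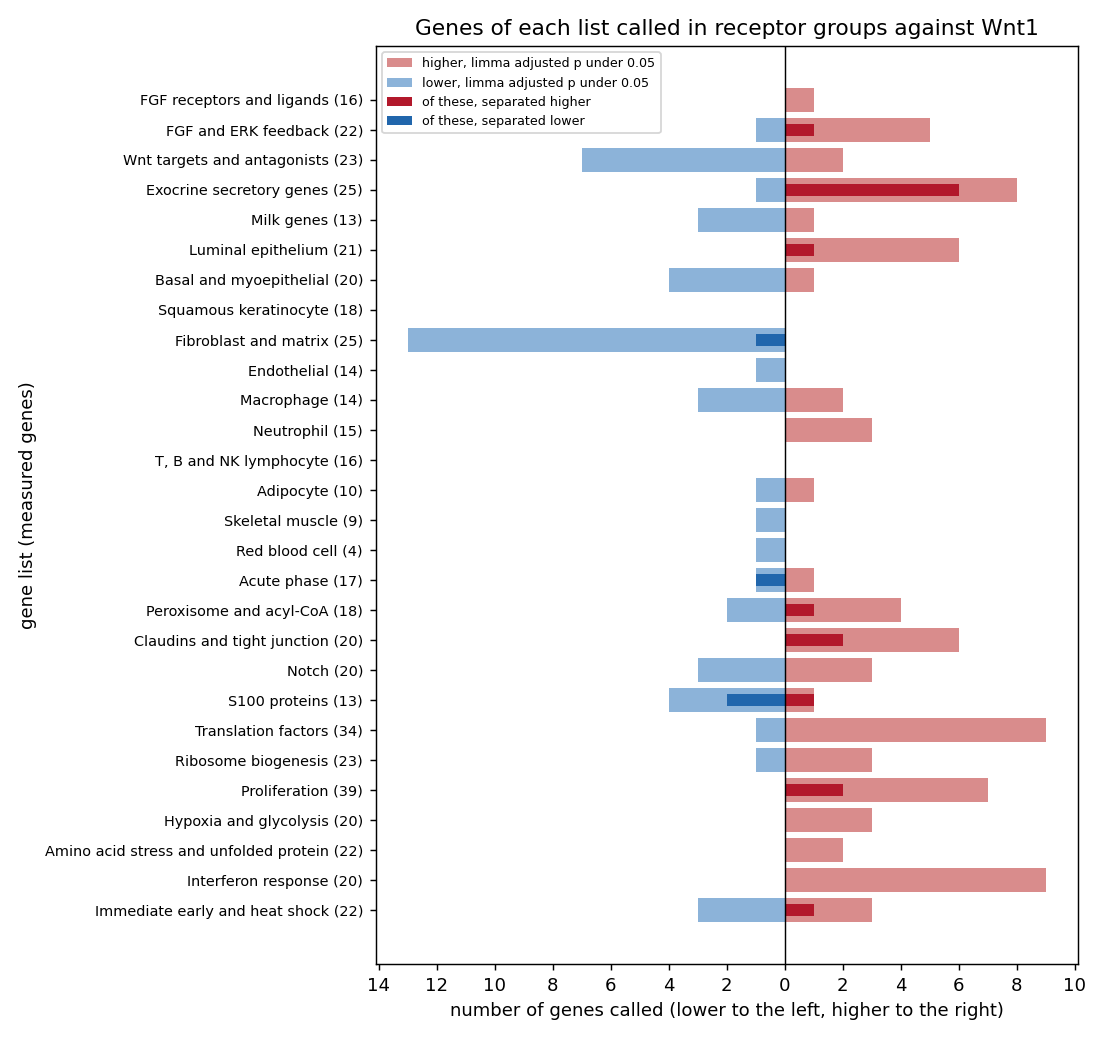
Number of genes of each list (vertical axis, with the number measured) that were called higher (to the right) or lower (to the left) in the receptor groups at an adjusted p under 0.05 in limma; the narrow dark bars count separated genes. The exocrine secretory list holds 6 separated genes of 8 called higher. The 9 interferon genes called higher include 0 separated genes, and the 13 fibroblast and matrix genes called lower include 1. Over all genes, 6.62% of called genes were separated.

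On the separated genes the 3 receptor groups had similar median differences from Wnt1, which the choice of genes favours. The median difference of the higher genes was 1.16 in iFGFR1, 0.98 in iFGFR2 and 1.01 in iR2, and that of the lower genes -0.82, -0.83 and -0.73. The median over all genes was 0.02, 0.01 and -0.05 in that order. The largest of the 3 differences lay in iFGFR1 for 42 higher genes, in iR2 for 24 and in iFGFR2 for 18. Among the lower genes it lay in iFGFR1 for 28, in iFGFR2 for 17 and in iR2 for 13. The smallest difference had a median of 0.666 of the largest among the higher genes and 0.63 among the lower genes. It was at least 0.8 of the largest in 12 of 84 higher and 7 of 58 lower genes, and under 0.5 in 10 and 12. The 3 comparisons share the 6 Wnt1 arrays, and the genes were chosen on the arrays of all 3 groups. Their likeness is therefore not independent evidence.

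**Figure D4:**
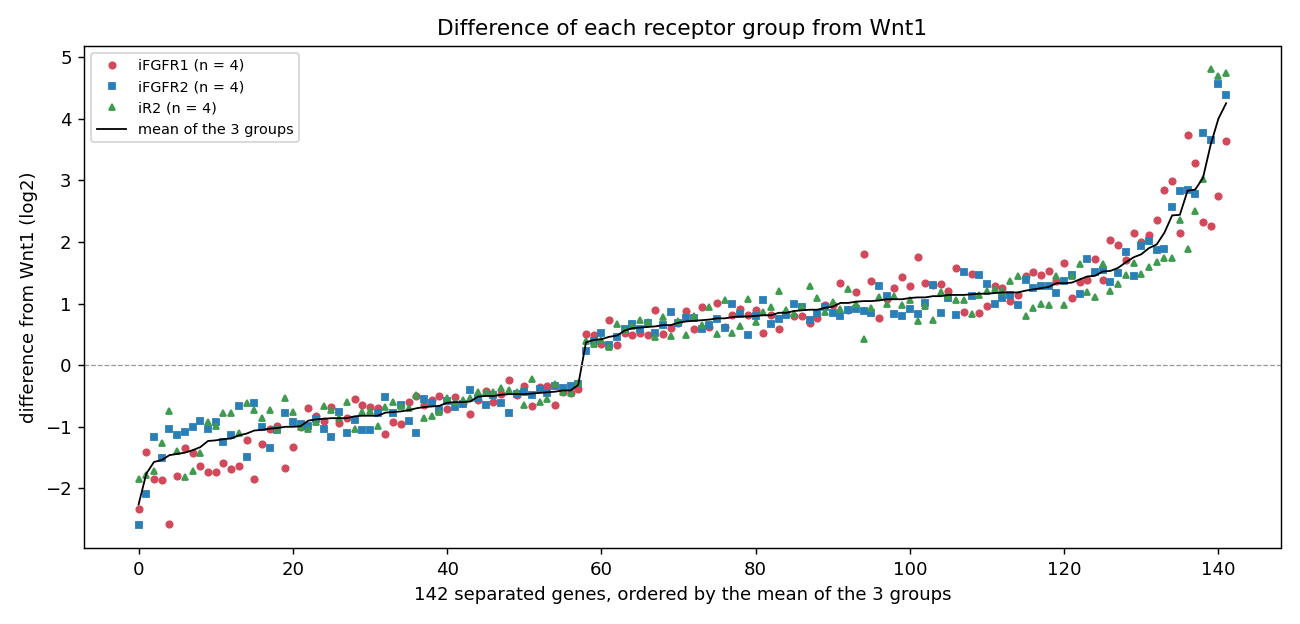
Difference from Wnt1 in log2 units (vertical axis) of iFGFR1, iFGFR2 and iR2 for each of the 142 separated genes, ordered by the mean of the 3 (black line). All points of a gene lie on 1 side of 0, which the choice of genes fixes; the groups spread most at both ends, as for Pdgfrl and Scgb2b27.

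The receptor groups were also compared among themselves. That contrast holds no Wnt1 array, but the error of the fit draws on all 18, and the same 12 receptor values had a part in choosing the genes. By limma's F test over the 3 groups, 12 of 142 separated genes (8.45%) had an adjusted p under 0.05, beside 9.34% of all genes. Because of that choice nothing is read from how these shares compare. Pdgfrl gave an adjusted p of 0.000248, with differences from Wnt1 of -2.58 in iFGFR1, -1.04 in iFGFR2 and -0.74 in iR2. Acox2 gave 0.0088 in limma, with 3.74, 2.85 and 1.89 in that order. Ier3 gave 0.0199 in limma, with 1.76, 0.83 and 0.72, and Prom1 0.0207, with 2.85, 1.88 and 1.74. Scgb2b27 gave 0.039 in limma and ran the other way, with differences of 2.74 in iFGFR1 but 4.57 and 4.70 in iFGFR2 and iR2.

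The other 7 genes of the 12, named because the test passed, all had their largest difference in iFGFR1. Armcx4 differed from Wnt1 by -1.85, -0.61 and -0.73, and Aunip by 1.81, 0.88 and 0.42. Cyp7b1, an oxysterol hydroxylase, differed by -1.68, -1.14 and -0.77, and Slc43a2, an amino acid transporter, by -1.67, -0.78 and -0.54. Cpxm2 differed by -1.64, -0.67 and -1.10, Nt5dc2 by 1.57, 0.81 and 1.06, and the small heat shock protein Hspb8 by 2.03, 1.35 and 1.21. A gene that missed the threshold is not shown to have equal levels in the 3 groups: Car6 differed by 3.64 ± 0.62, 4.38 ± 0.62 and 4.74 ± 0.62.

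The pooled fit called 2115 of 16887 genes (12.5%), of which 140 separated genes are 6.62%. A gene whose 18 arrays do not overlap had to differ, so these calls add nothing to the separation. The 2 separated genes that were not called had small differences, 0.37 for Mindy1 and -0.32 for Olfr1394. When each receptor group was set against Wnt1 alone, 15.4% of genes were called in iFGFR1, 3.43% in iFGFR2 and 7.1% in iR2. In the same direction in all 3, 164 genes (0.971%) were called, 108 (0.64%) higher and 56 (0.332%) lower. They include 52 of the 84 higher and 24 of the 58 lower separated genes.

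**Figure D5:**
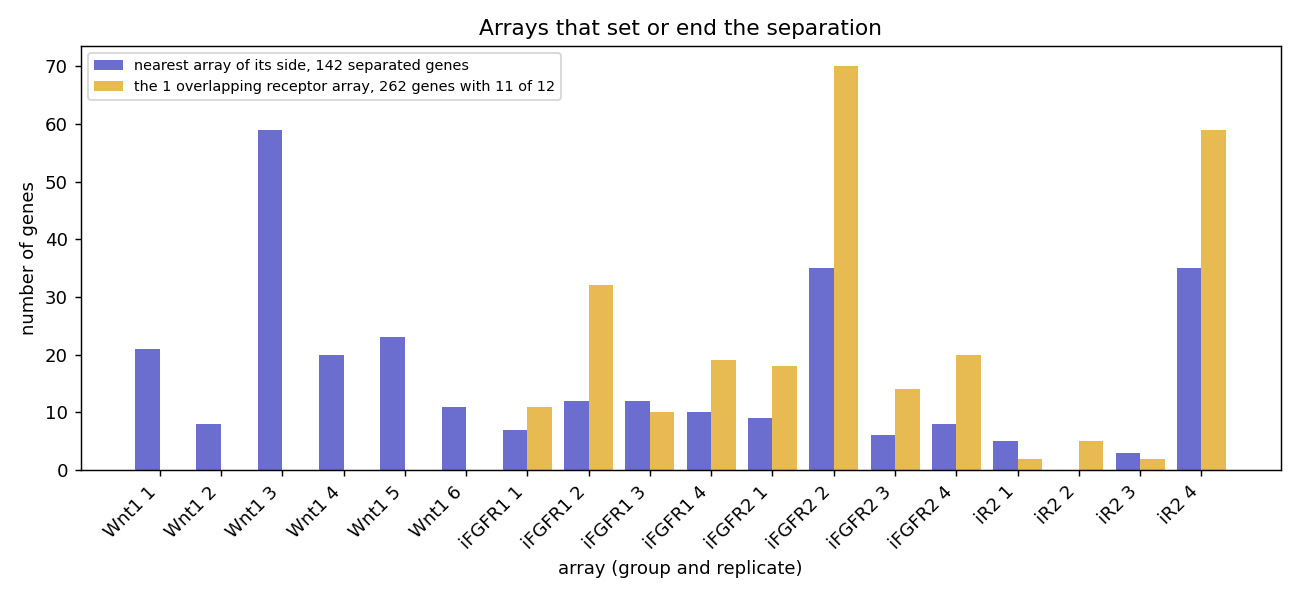
Number of genes (vertical axis) for which each array (horizontal axis) was the nearest of its side to the other side among the 142 separated genes, and the number of the 262 genes with 11 of 12 receptor arrays past all Wnt1 arrays for which it was the overlapping receptor array. Wnt1 replicate 3 was nearest in 59 genes, and iFGFR2 replicate 2 and iR2 replicate 4 in 35 each.

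Membership depended strongly on a few arrays. Wnt1 replicate 3 was the nearest Wnt1 array in 59 of 142 genes, and the other 5 Wnt1 arrays in 8 to 23. On the receptor side, iFGFR2 replicate 2 and iR2 replicate 4 were nearest in 35 genes each, while the other 10 were nearest in 0 to 12. Leaving out an array can only add genes. Without Wnt1 replicate 3 there were 513 separated genes, 313 higher and 200 lower, so 371 were added. Without iFGFR2 replicate 2 there were 212, and without iR2 replicate 4 there were 201. The median difference of the 142 hardly moved without Wnt1 replicate 3, from 1.08 to 1.09 for the higher and from -0.82 to -0.84 for the lower genes. Single genes moved to between 0.81 and 1.13 of their difference. The rule already placed replicate 3 on the Wnt1 side of these genes, so little change was favoured by their choice.

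Just outside the rule, 262 genes had exactly 11 of 12 receptor arrays past all Wnt1 arrays, 150 (0.888%) higher and 112 (0.663%) lower. The overlapping array was iFGFR2 replicate 2 for 70 of them and iR2 replicate 4 for 59. The largest higher ones were Pglyrp1 (2.10), an antibacterial protein, Arg1 (2.01), arginase, and Rtp4 (1.93), an interferon-induced chaperone. Pglyrp1 missed by iR2 replicate 4, at -1.34 against a highest Wnt1 array of -1.07. The largest lower ones were Ecrg4 (-2.33), a secreted peptide precursor, Cyp2f2 (-1.83), a cytochrome P450, and Trim55 (-1.80). Just inside, Rtkn was separated by 0.001 and Tmem158, Ikbip and Trim35 by 0.002 each.

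Membership also depends on how features were joined. Of the separated genes, 5 higher and 9 lower had several features, and in 7 of these 14 no single feature was separated by itself, Tanc1 being 1 of them. Chn2 rested on 1 feature at 2.18 while the other stood at 0.02, and Hnrnpa1 on 1 at 1.06 while the other stood at -0.10. Carhsp1 had 10 features with differences from 0.17 to 0.97, all above 0. Each sample title carries a number whose meaning is not stated, and it was higher on all iR2 arrays than on any other array. With that number as a covariate, 82 of 142 genes kept an adjusted p under 0.05 in limma, 60 of 84 higher and 22 of 58 lower, and all 142 kept their sign. Among named genes that lost it, the difference stayed near its size in Slc12a2 (1.47), P2rx2 (-1.0), Lamp1 (-0.56), Pmp22 (-1.14) and Hp (-1.96). It shrank in Ntng1 (-0.89), Prodh (0.88) and Ier3 (0.74). On 4 of the 6 Wnt1 arrays the number was lower than on every receptor array. The number is thus partly tied to the comparison and to the iR2 group, from which it cannot be fully told apart.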

How the data were processed

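Tumour RNA (Cy5) and whole-mouse reference RNA (Cy3) were hybridised together on 18 arrays, per the labels. The authors deposited 1 table of log ratios, read here as log2, for 22575 features, with 0 empty cells and column medians from -0.02 to 0.01. For the scanner, background correction and normalization, nothing is given in the sources used here. The number of arrays limits the precision.

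Of the features, 18658 had 1 gene symbol in the platform annotation, 30 had several and 3887 had none. Features of 1 symbol were averaged to 16887 genes. The 4 groups were fitted together with the lmFit and eBayes functions of limma 3.58.1 (R 4.3.3), checked on simulated data, with Benjamini-Hochberg adjustment over all genes and a threshold of 0.05. Named genes are the 12 largest separated genes in each direction, the 6 widest gaps, the 5 most even of size 1 or more, the separated members of 28 gene lists, the 3 largest just outside the rule, and Fgfr1, Fgfr2, Wnt1 and Fkbp1a. Unnamed clones were passed over. Genes named outside this rule were chosen after their values were seen. The members and lists were chosen with earlier results of these data known. RefSeq promoters were matched by Entrez gene ID. Alternatives covered normalization, scaling, feature choice, array weights, the prior, a title-number covariate, and arrays left out.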

Additional observations from a re-analysis of the deposited data

Results flagged for a closer look

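Single arrays stood apart from the rest of their group in 11 of 204 groups of named genes, under a rule whose critical value is set so that chance sets apart about 1 group in 20. On the Wnt1 arrays, replicate 3 stood high for Car6 (-2.72, the other 5 within 0.27 of each other) and for Pmp22 (-1.31), replicate 6 stood low for Tcaf1 (-1.28), and replicate 5 low for Fgfr1 (-0.06). On the iFGFR2 arrays, replicate 1 stood apart in 4 genes, high for Il20rb (2.73), Rtp4 (1.86) and Pdgfrl (-0.55) and low for Hp (-5.74). On the iFGFR1 arrays, replicate 4 stood high for Olfml3 (-0.90) and replicate 1 high for Hdac2 (1.52). On the iR2 arrays, replicate 2 stood low for Sema6d (-0.75).

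The receptor groups differed among themselves, by limma's F test, in 9 named genes. Among separated genes the adjusted p in limma was 0.000248 for Pdgfrl, 0.0088 for Acox2, 0.0199 for Ier3, 0.0207 for Prom1 and 0.039 for Scgb2b27. Among genes just outside the rule it was 0.000153 for Pglyrp1, 0.00409 for Arg1 and 0.00842 for Ecrg4 in limma, each with its largest difference from Wnt1 in iFGFR1 (3.5, 3.26 and -3.43). For Fgfr1 it was 0.000599 in limma, and the difference from Wnt1 was 1.38 in iFGFR1, -0.01 in iFGFR2 and 0.34 in iR2.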

How the results depend on the processing

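The count of separated genes was 155 after quantile normalization, 146 with arrays scaled to 1 median absolute deviation and 146 with the most variable feature per gene, with 117, 113 and 134 of the 142 genes among them. It was 328 without the iR2 arrays, 317 without iFGFR2 replicate 2 and iR2 replicate 4 together (chosen after seeing the data), and 144 to 513 with each array left out in turn. The count called in the pooled comparison was 3457 with array weights, 659 with the title number as a covariate (433 higher and 226 lower) and 1221 (without Wnt1 replicate 2) to 2831 (without Wnt1 replicate 3) with each array left out; without Wnt1 replicate 6 it was 1224. The count called between the receptor groups was 2826 with scaled arrays, 3098 with array weights, 503 with the title number, 171 without iR2 and 842 to 1882 with each array left out. The count called in all 3 groups was 364 with array weights, 31 with the title number and 54 (without iFGFR2 replicate 1) to 480 (without Wnt1 replicate 3). The cause was not tested, except that fewer arrays make separation easier by construction.

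With the title number as a covariate, Wnt1 turned to 0.44 and Fkbp1a to 0.29, neither called. Fkbp1a was 0.01 without iFGFR2 replicate 2 and iR2 replicate 4 together, and ran from -0.17 to 0.02 with each array left out. Fgfr2 was called with array weights (-0.54). All 142 separated genes kept their sign under every alternative listed. For arrays left out, array weights and the prior, the lack of overlap fixes this. Only normalization, scaling, feature choice and the covariate could have changed a sign. Of the 142, 133 to 141 stayed called with each array left out and 127 without iR2. Array weights, the prior and the covariate do not enter the separation rule. No paired analysis was possible because replicate numbers follow accession order only. Spot intensities were not used here, so signal over background limits these values to an unknown degree.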

Other observations

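Without Wnt1 replicate 3, chosen for a closer view after the data were seen, 371 further genes were separated, 229 higher and 142 lower in the receptor groups. The examples below were picked from these for their size or role after their values were seen. Hey1, a Notch target, lay at 1.77 on Wnt1 replicate 3, between -1.24 and -0.31 on the other 5 Wnt1 arrays and between 0.57 and 4.07 on the receptor arrays. Elf5, a transcription factor of alveolar cells, lay at 5.44 on replicate 3, between 1.59 and 2.72 on the other Wnt1 arrays and between 3.20 and 4.64 on the receptor arrays. The milk protein gene Csn3 lay at 6.67 on replicate 3, between 3.0 and 4.69 on the other Wnt1 arrays and between 4.87 and 7.41 on the receptor arrays. The neurocalcin gene Ncald lay at 0.87 on replicate 3, between -2.38 and -1.08 on the other Wnt1 arrays and between -0.15 and 2.55 on the receptor arrays.

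Among the genes that became separated as lower, Sostdc1, an antagonist of BMP and Wnt ligands, lay at 0.20 on replicate 3, between 2.93 and 3.20 on the other Wnt1 arrays and between -1.43 and 2.09 on the receptor arrays. Foxd3, a neural crest transcription factor, lay at -1.41 on replicate 3, between 2.26 and 2.93 on the other Wnt1 arrays and between -1.84 and 1.85 on the receptor arrays. Kif26b, a kinesin, lay at -0.66 on replicate 3, between 2.34 and 3.13 on the other Wnt1 arrays and between -1.14 and 2.28 on the receptor arrays. On each of these 7 genes the value of replicate 3 fell within the range of the receptor arrays or beyond it, away from the other Wnt1 arrays, which the way they were found fixes.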
